A study of Homo sapiens with 6 samples.

Results

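The enzymes that make or inactivate prostanoids were followed in MDA-MB-231 cells given arachidonic acid, the fatty acid these enzymes start from. The 10 genes were chosen by symbol from 63241 genes: the cyclooxygenases PTGS1 and PTGS2, the prostaglandin E synthases PTGES, PTGES2 and PTGES3, the prostacyclin, prostaglandin D and thromboxane synthases PTGIS, PTGDS and TBXAS1, and the inactivating enzymes HPGD and PTGR1. MDA-MB-231 is an established human line of triple-negative breast cancer with mesenchymal features. Of 6 RNA-seq libraries, 3 came from cells treated with 40 µM of ArA and cultured for 24 h, and 3 from non-treated cells of the same line grown in the same medium with serum. The labels name no vehicle for the control cells, and all libraries come from 1 cell line. Whether replicates were separate cultures is not stated, so the spread behind the p-values may be technical.

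Cyclooxygenases convert free arachidonic acid to the unstable endoperoxide prostaglandin H2, the common precursor of all prostanoids. Terminal synthases then turn it into prostaglandin E2, prostaglandin D2, prostacyclin or thromboxane, and which of them a cell expresses sets which prostanoid it can make. Oxidation by the dehydrogenase HPGD followed by reduction of a double bond ends the signal. In breast cancer cells PTGS2 and PTGES are known as an inducible pair that acts in sequence to make prostaglandin E2.

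Levels are in TPM, a share of all transcripts, with reads divided by transcript length, and so can be compared between genes. Depth per library is unknown, since TPM keeps no read totals. Markers of the cell line were high. The mesenchymal filament gene VIM had 1389 ± 52.9 TPM without ArA and 1482 ± 42.5 TPM with ArA (SD, n = 3 each). Of 6 luminal markers, the estrogen receptor gene ESR1 was at no more than 0.03 TPM. Others were present, with EPCAM, GATA3 and FOXA1 averaging 5.3, 3.5 and 3.3 TPM over the 6 libraries. The 6 luminal markers summed to 10.4 to 13.5 TPM in control and 10.66 to 14.15 TPM in ArA libraries. Control replicate 2 and ArA replicate 1 stood apart from the other 4 libraries: their levels increased with the GC content of a gene, by 0.18 and 0.14 on the log2 scale per 10 percentage points, against slopes of -0.13 to -0.03 in the others. Markers of cell types known for PTGS1, TBXAS1, PTGIS or PTGDS were low in both groups. The summed level of 4 platelet markers was 0.02 to 0.16 TPM in control and 0.10 to 0.32 TPM in ArA libraries, with GP9, PF4 and PPBP listed at 0. For 4 endothelial markers it was 0.75 to 1.10 and 0.80 to 1.24 TPM, and for 5 mast cell markers 0.43 to 0.56 and 0.45 to 1.09 TPM, with CPA3 and FCER1A listed at 0. For 5 leukocyte markers it was 0.28 to 1.14 and 0.53 to 0.62 TPM. The 5 fibroblast and smooth muscle markers summed to 6.40 to 7.83 and 6.41 to 9.61 TPM, mostly from PDGFRB and ACTA2.

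The inducible pair is shown first by its promoters, because PTGES and PTGS2 are known to act in sequence. Each sequence is the 250 bases before the start site in RefSeq on GRCh38.p14, written 5′ to 3′ on the gene's own strand, with motif matches in capitals. PTGES lies on the reverse strand at chr9:129753043-129753292 for this window, and PTGS2 on the reverse strand at chr1:186680424-186680673.
PTGES: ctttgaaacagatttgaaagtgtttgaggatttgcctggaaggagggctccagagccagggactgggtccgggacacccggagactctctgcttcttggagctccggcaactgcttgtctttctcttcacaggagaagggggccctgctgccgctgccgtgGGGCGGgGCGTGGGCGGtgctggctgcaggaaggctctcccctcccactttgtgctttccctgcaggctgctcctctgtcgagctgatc
PTGS2: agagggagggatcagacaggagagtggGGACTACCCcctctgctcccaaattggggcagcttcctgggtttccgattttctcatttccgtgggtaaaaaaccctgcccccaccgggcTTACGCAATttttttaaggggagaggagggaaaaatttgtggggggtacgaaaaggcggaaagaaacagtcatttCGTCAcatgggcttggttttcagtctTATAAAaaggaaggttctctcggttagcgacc
In PTGES the capitals mark a binding motif of EGR factors, GCGTGGGCG, at -82 to -74 from the start site, and GC boxes, GGGCGG, at -89 and -78, of which the second overlaps the EGR motif. In PTGS2 they mark a kappa-B motif, GGACTNNCC, at -223 to -215, a C/EBP motif, TTNNGCAAT, at -133 to -125, the cyclic AMP response core CGTCA at -58 to -54, and a TATA box, TATAAA, at -32 to -27. Motifs were searched on both strands. Of 35116 promoter windows of this length, 0.72% held the EGR motif, 42.6% a GC box, 3.66% the kappa-B motif, 2.04% the C/EBP motif, 21.2% the cyclic AMP core and 10.7% the TATA box. The nuclear receptor half-site AGGTCA, in 12.1% of windows, matched neither. The windows of the 2 genes share none of these motifs, and their GC contents were 61.2% for PTGES and 50.4% for PTGS2. A match describes the letters and is not evidence of binding. Windows were found for 9 of the 10 genes. The EGR motif was not particular to PTGES among them, as a window of PTGES2 held it at -147 to -139. GC boxes also lay in windows of PTGES2, PTGES3, PTGS1 and HPGD. The cyclic AMP core lay in windows of PTGES3 and HPGD, and the TATA box in windows of TBXAS1 and PTGS1.

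The 10 genes differed widely in level. PTGES3 was highest, at 169 to 221 TPM over the 6 libraries. PTGR1, PTGES2, PTGS2 and PTGES followed between 10.8 and 41.5 TPM. TBXAS1, HPGD and PTGS1 lay lower, at 1.96 to 3.66, 0.75 to 1.63 and 0.33 to 0.52 TPM. PTGIS and PTGDS were listed at 0 in all 6 libraries. In control libraries the order was PTGES3, PTGR1, PTGES2, PTGS2, PTGES, TBXAS1, HPGD and PTGS1, and only PTGR1 and PTGES2 overlapped as neighbours. In ArA libraries the order was the same, but the libraries of PTGS2 and PTGES also overlapped.

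**Figure D1:**
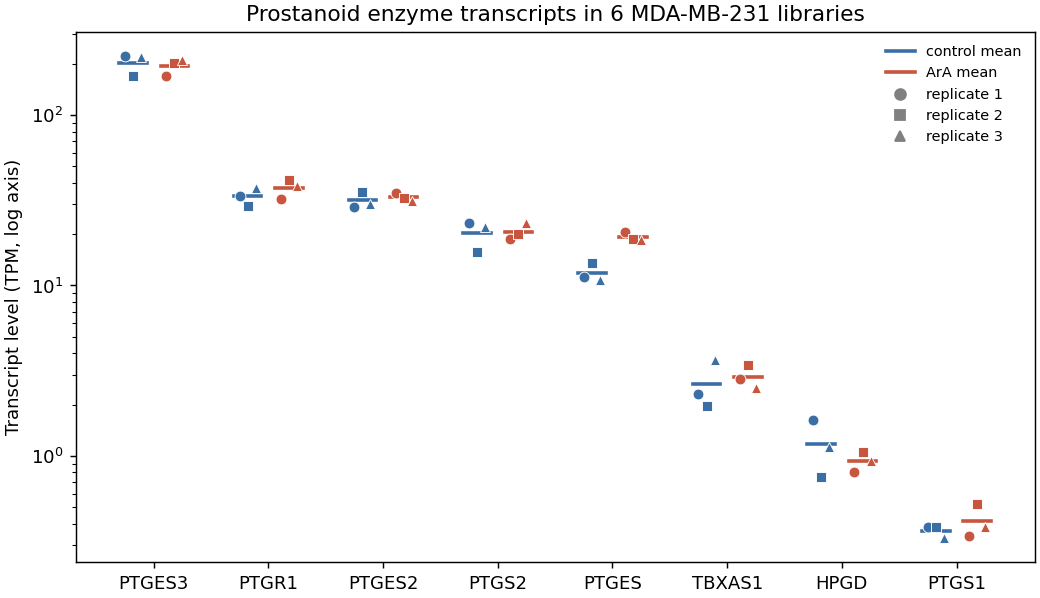
Levels of the 8 genes above 0 in TPM on a log axis, with 1 symbol per library (3 control in blue, 3 ArA in red) and the group mean as a bar. PTGES is the gene whose ArA libraries, at 18.4 to 20.7 TPM, all lie above its control libraries, at 10.8 to 13.5 TPM; in the other 7 genes the groups overlap.

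Exposure to the fatty acid was compared with no treatment to ask whether the cells' own prostanoid enzymes differed at the transcript level. Genes that averaged 1 TPM or more were tested with limma on log2(TPM + 1), which compresses differences between low levels, and adjusted over all 12999 of them. Of the 10 genes, 7 passed this filter, PTGS1 did not, and PTGIS and PTGDS were at 0. None of the 7 passed an adjusted p of 0.05 in limma, where 3 of all tested genes passed (0.0231%). At an unadjusted limma p under 0.05 there was 1 of 7, PTGES, against 2.78% of all tested genes. The groups did not overlap for 1 of 7, also PTGES, against 8.05% of all tested genes. The median log2 fold change of the 7 was 0.06, the same as the 0.06 of all tested genes.

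PTGES (ENSG00000148344) encodes the inducible, membrane-bound prostaglandin E synthase and maps to chromosome 9, 129738331 to 129753047, reverse strand (GENCODE v29, hg38). It had 11.26, 13.47 and 10.78 TPM in control replicates 1, 2 and 3 and 20.68, 18.75 and 18.44 TPM in ArA replicates 1, 2 and 3. All 3 ArA libraries were higher than all 3 control libraries. In bulk RNA, more cells with a transcript and more transcript per cell cannot be told apart. The means were 11.8 ± 1.43 and 19.3 ± 1.21 TPM (SD, n = 3 each), a 1.63-fold difference. Limma put the log2 fold change at 0.66 (SE 0.12, 95% interval 0.38 to 0.95), with an unadjusted p of 0.000844, the 15th smallest of 12999, and an adjusted p of 0.690. The difference therefore exceeded the spread between libraries for this gene taken alone but did not pass over all genes. Its estimate stayed between 0.53 and 0.75 over the 21 alternatives. It passed in 1 of them, where libraries were weighted by quality (limma adjusted p = 0.00802), and 214 genes passed over all genes in that fit. Without control replicate 2 and ArA replicate 1 the estimate was 0.71 (limma adjusted p = 0.204). Between 31.6 and 32.9% of the TPM in control libraries and between 26.9 and 32.1% in ArA libraries came from genes of the mitochondrial genome. When TPM were rescaled without them, the estimate for PTGES was 0.62 (limma adjusted p = 1).

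PTGES was next set against the other prostaglandin E synthases within each library. The ratio of PTGES to PTGES2 in TPM was 0.388, 0.381 and 0.357 in control libraries and 0.595, 0.574 and 0.587 in ArA libraries. The means were 0.375 ± 0.0161 and 0.586 ± 0.0107 (SD, n = 3 each), and all libraries kept to their group, including the 2 libraries that stood apart by GC content. A ratio within a library does not depend on how that library is scaled. It shows unequal levels of the 2 transcripts and does not say which of them moved.

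PTGES2 (ENSG00000148334) encodes a second membrane-associated synthase and lies on the same chromosome from 128120693 to 128128462, on the reverse strand. It had 29.04, 35.36 and 30.19 TPM without ArA and 34.74, 32.66 and 31.41 TPM with ArA. The groups overlapped, with the highest value in control replicate 2. Limma estimated a log2 fold change of 0.06 ± 0.11 (SE; 95% interval from -0.19 to 0.32; adjusted p = 0.999), so the interval of the fold ran from 0.878 to 1.25.

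PTGES3 (ENSG00000110958), on chromosome 12 (reverse strand, 56663341 to 56688408), encodes the cytosolic synthase, also known as the HSP90 co-chaperone p23. It had 221.20, 169.40 and 219.24 TPM without ArA and 170.19, 201.07 and 210.54 TPM with ArA. Control replicate 2 and ArA replicate 1 were both low and nearly equal, and the groups overlapped. Limma estimated a log2 fold change of -0.06 ± 0.13 (SE; 95% interval from -0.38 to 0.25; adjusted p = 0.999). The processed copy PTGES3P1 was listed at 0.87 to 3.19 TPM and 4 further copies at 0. Reads that copies share could be split between them, so the level of PTGES3 is uncertain to that extent.

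Among transcripts of the 3 synthases together, PTGES3 made up 77.6 to 84.6% in control and 75.4 to 80.9% in ArA libraries, and these ranges overlapped. PTGES made up 4.31, 6.17 and 4.14% in control and 9.17, 7.43 and 7.08% in ArA libraries. Its share was higher in each ArA library than in any control library, by 0.909 percentage points between the nearest values. PTGES2 made up 11.1 to 16.2% and 12.1 to 15.4%.

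PTGS2 (ENSG00000073756) encodes cyclooxygenase-2, the inducible enzyme upstream of PTGES, and maps to chromosome 1, 186671791 to 186680427, reverse strand. It had 23.10, 15.80 and 21.97 TPM without ArA and 18.63, 20.13 and 23.24 TPM with ArA. The groups overlapped, with control replicate 2 below all other libraries and ArA replicate 3 above all others. The means were 20.3 ± 3.93 and 20.7 ± 2.35 TPM (SD, n = 3 each). Limma estimated a log2 fold change of 0.04 ± 0.16 (SE; 95% interval from -0.35 to 0.43; adjusted p = 0.999), so the interval of the fold ran from 0.784 to 1.34. Its sign was negative under each of the 3 other scalings, at -0.03 to -0.01, without control replicate 2, at -0.12, without ArA replicate 3, at -0.05, without both control replicate 2 and ArA replicate 1, at -0.06, and with array weights, at -0.09. The ratio of PTGES to PTGS2 was 0.487, 0.853 and 0.491 in control and 1.11, 0.931 and 0.794 in ArA libraries. Here control replicate 2 lay above ArA replicate 3, so the 2 groups overlapped.

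PTGS1 (ENSG00000095303), the gene of the constitutive cyclooxygenase-1, maps to chromosome 9, 122370530 to 122395703, forward strand. It had 0.38, 0.38 and 0.33 TPM without ArA and 0.34, 0.52 and 0.38 TPM with ArA. The groups overlapped, with p = 0.6 in an exact permutation test (2-sided); 3 against 3 libraries cannot give less than 0.1. The level of PTGS2 was 38.7 to 66.6 times that of PTGS1 over the 6 libraries. Cyclooxygenase transcripts of these cells were thus almost entirely PTGS2 in either group.

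TBXAS1 (ENSG00000059377) encodes thromboxane A synthase, which is known from platelets and macrophages, and maps to chromosome 7, 139777051 to 140020325, forward strand. It had 2.31, 1.96 and 3.66 TPM without ArA and 2.81, 3.43 and 2.50 TPM with ArA. The groups overlapped, and the widest spread was among control libraries. Limma estimated a log2 fold change of 0.12 ± 0.21 (SE; 95% interval from -0.37 to 0.62; adjusted p = 0.999). HIPK2, a kinase gene at 4.58 to 6.31 TPM, overlaps TBXAS1 on the opposite strand. Whether counting used strand is not given in the sources used here, so reads of the 2 genes may not be separated.

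PTGIS (ENSG00000124212), the prostacyclin synthase gene of vessel walls, maps to chromosome 20, 49503874 to 49568146, reverse strand. PTGDS (ENSG00000107317), the lipocalin-type prostaglandin D synthase gene, maps to chromosome 9, 136975092 to 136981742, forward strand. Both were listed at 0 in all 6 libraries, as was HPGDS, the other prostaglandin D synthase gene. No fold or test can be given for them, and an exact 0 in such a table can also be a failed estimate.

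HPGD (ENSG00000164120) encodes 15-hydroxyprostaglandin dehydrogenase, which starts prostaglandin inactivation and is known as an opponent of cyclooxygenase-2 in tumors. It maps to chromosome 4, 174490177 to 174523154, reverse strand. It had 1.63, 0.75 and 1.13 TPM without ArA and 0.80, 1.06 and 0.93 TPM with ArA, so the highest and the lowest values were both in control cells. Limma estimated a log2 fold change of -0.15 ± 0.20 (SE; 95% interval from -0.63 to 0.32; adjusted p = 0.999). With a mean of 1.05 TPM, HPGD passed the filter on low values by a small margin.

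PTGR1 (ENSG00000106853) encodes prostaglandin reductase 1, which acts after HPGD and also inactivates leukotriene B4. It maps to chromosome 9, 111549722 to 111599893, reverse strand. It had 33.36, 29.45 and 37.18 TPM without ArA and 32.14, 41.45 and 38.42 TPM with ArA. ArA replicates 2 and 3 were above all control libraries and ArA replicate 1 was within their range. Limma estimated a log2 fold change of 0.16 ± 0.13 (SE; 95% interval from -0.16 to 0.47; adjusted p = 0.999). PTGR1 exceeded HPGD 20.5-, 39.3- and 32.9-fold in control and 40.2-, 39.1- and 41.3-fold in ArA libraries.

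**Figure D2:**
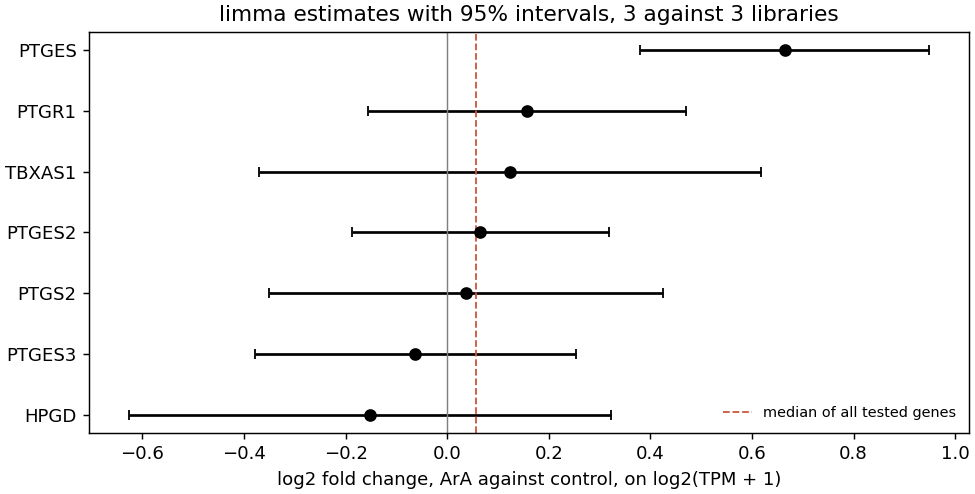
log2 fold changes of the 7 tested genes, ArA against control, with 95% intervals from limma on log2(TPM + 1); the dashed line is the median of all tested genes, 0.06. The interval of PTGES, 0.38 to 0.95, lies above 0, and the intervals of the other 6 genes include 0.

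Levels within each group moved with GC content. The 4 genes with the lowest GC content of their longest transcript, PTGS2 (36.9%), HPGD (38.8%), PTGR1 (42.8%) and PTGES3 (42.9%), were lowest in control replicate 2 among control libraries and lowest in ArA replicate 1 among ArA libraries. The 2 with the highest GC content, PTGES (56.9%) and PTGES2 (65.7%), were highest in the same 2 libraries. PTGS1 (50.8%) and TBXAS1 (53.8%), between them, followed neither order. After the libraries' trends with GC content were removed, the log2 fold change was 0.60 for PTGES (SE 0.09, limma adjusted p = 0.351), 0.02 for PTGS2 and 0.00 for PTGES2. For PTGES3 it was -0.10. The GC-corrected value of PTGES was 0.06 lower than the uncorrected one. Whether its groups overlap after this correction was not tested.

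**Figure D3:**
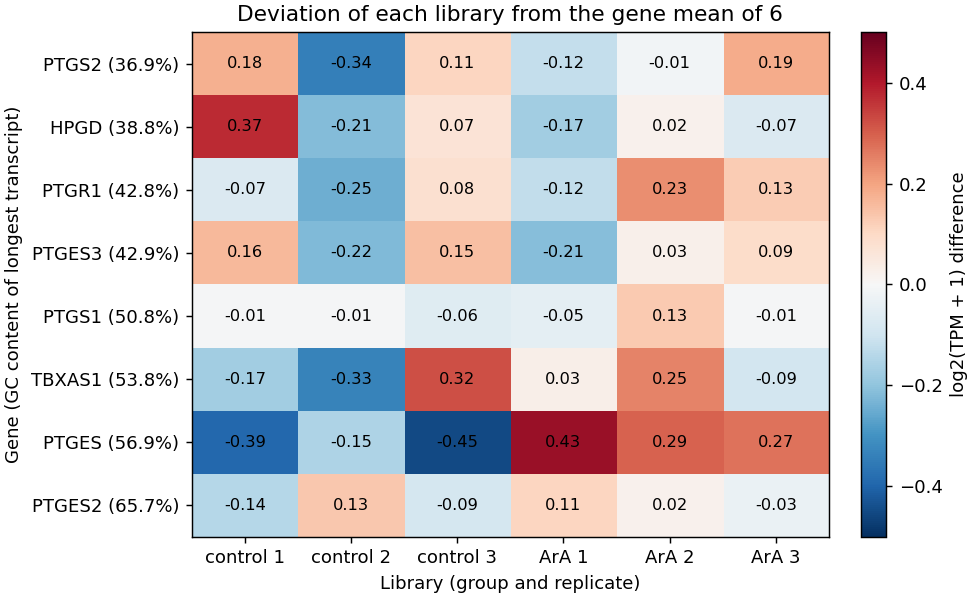
Deviation of each library from the gene's mean over 6 libraries on log2(TPM + 1), with genes ordered by the GC content of their longest transcript. PTGES runs from -0.45 to -0.15 in control and from 0.27 to 0.43 in ArA libraries; the 4 genes of lowest GC content are lowest within their group in control 2 and in ArA 1.

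Leaving out these 2 libraries left 2 against 2, a comparison in which 44.4% of all tested genes had groups that did not overlap. PTGES, PTGES2 and PTGR1 were then higher and HPGD and PTGES3 lower in ArA libraries without overlap, 5 of 7 genes, and none passed in limma. The estimate for PTGS2 was -0.06 and that for HPGD -0.25 (limma adjusted p = 0.856 and 0.635). Of all alternatives, PTGES gave an unadjusted limma p under 0.05 in 21 of 21, and the other 6 genes in none of the alternatives run on them. Such a p was reached by 215 of 12999 tested genes without ArA replicate 3 and by 3189 with array weights. Without control replicate 2 and ArA replicate 1 it was reached by 1255. The alternatives reuse the same 6 libraries, so they are not separate observations.

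**Figure D4:**
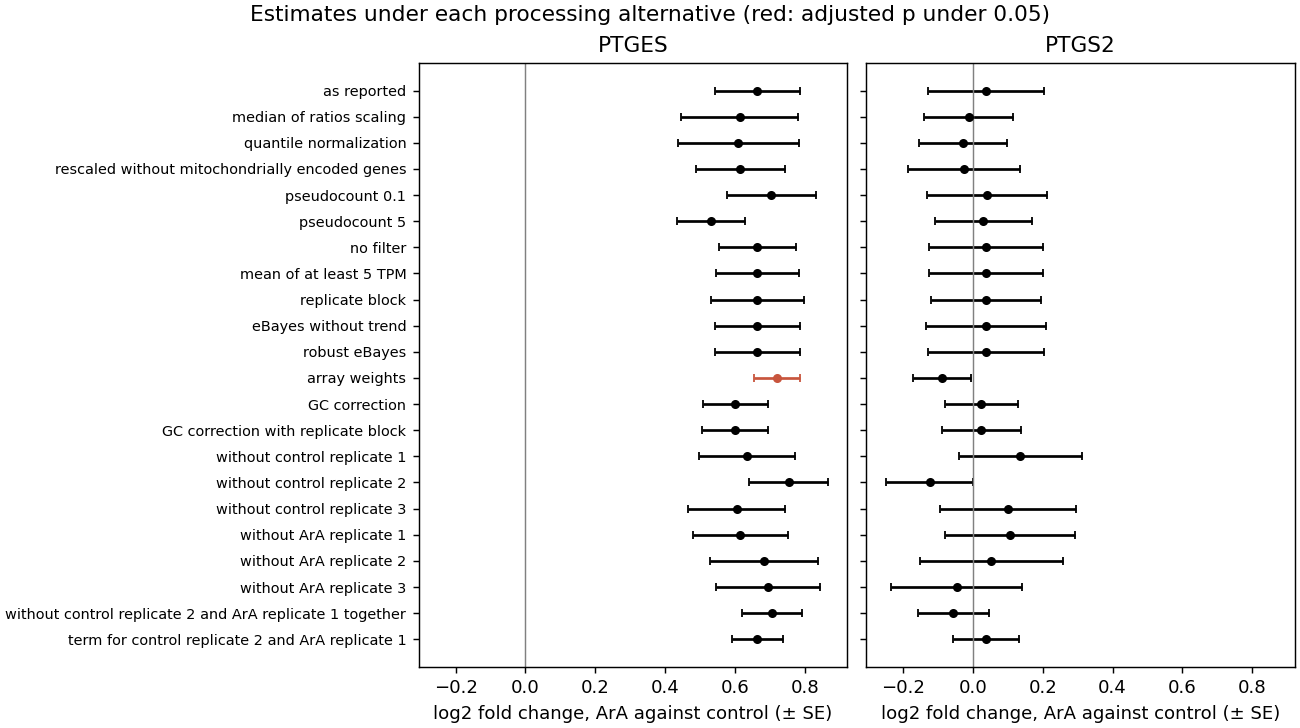
log2 fold changes of PTGES and PTGS2 with standard errors in the fit as reported and in 21 alternatives. PTGES stays between 0.53 and 0.75 and passes an adjusted p of 0.05 with array weights alone; PTGS2 runs from -0.12 to 0.14 and takes both signs.

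Other genes of the pathway were taken from 4 lists: further prostanoid enzymes, lipases that free arachidonate from membranes or from endocannabinoids, receptors and transporters, and known regulators of PTGS2 and PTGES transcripts. None of the 35 tested genes in them passed in limma over all genes.

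Of 13 further prostanoid enzymes in the table, 11 were tested. Of these, 10 were positive in log2 fold change (9 by every other scaling), where 68.9% of all tested genes were positive, and the median was 0.18. The groups did not overlap for 4 of 11, all higher in ArA libraries, against 6.84% of all tested genes. Of these 4, AKR1C2 averaged 0.96 TPM without ArA and passed the filter of 1 TPM only through its ArA libraries. Its place in this count therefore rests on the values that admitted it. AKR1B1, an aldose reductase that can also make prostaglandin F2α, had the smallest p and the highest level of the list. It had 212.21, 226.63 and 210.80 TPM without ArA and 302.26, 304.69 and 306.80 TPM with ArA, without overlap, with a log2 fold change of 0.49 (SE 0.07, limma adjusted p = 0.335). The glutathione transferase gene GSTM3 came next by level, at 56.7 ± 3.26 TPM without ArA and 65.6 ± 9.70 TPM with ArA (SD, n = 3 each). The other 3 without overlap were AKR1C1, AKR1C2 and the carbonyl reductase gene CBR1, named after their values were seen. AKR1C1 had 5.36 ± 0.902 and 8.18 ± 1.10 TPM and AKR1C2 0.960 ± 0.352 and 2.19 ± 0.562 TPM. These 2 genes are near-identical in sequence, so reads may be split between them and their values are uncertain. CBR1 had 48.4 ± 1.98 and 55.0 ± 4.21 TPM. AKR1C3, an enzyme that makes prostaglandin F2α, also named after its values were seen, had 19.6 ± 2.65 and 23.5 ± 2.49 TPM, and its groups overlapped.

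Upstream, 7 of 13 lipases were tested, 6 with positive log2 fold changes, and the groups overlapped for all 7. The median was 0.12. MGLL, which frees arachidonic acid from the endocannabinoid 2-arachidonoylglycerol, had the smallest p of the list. It had 28.34, 52.93 and 48.03 TPM without ArA and 30.63, 33.04 and 32.74 TPM with ArA, with control replicate 1 below all ArA libraries and the other 2 above them (limma adjusted p = 0.999). The phospholipase gene PLAAT3 had 36.4 ± 2.96 and 39.7 ± 4.47 TPM (SD, n = 3 each). PLA2G4A, the cytosolic phospholipase A2 that feeds cyclooxygenases, named after its values were seen, had 5.28 ± 1.73 and 5.73 ± 1.34 TPM.

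Downstream, 3 of 11 receptor and transporter genes were tested, with 1 positive log2 fold change and a median of -0.07. The transporter gene ABCC4, which exports prostaglandins, had 5.94 ± 1.31 and 6.61 ± 0.598 TPM, and the thromboxane receptor gene TBXA2R 3.94 ± 0.160 and 3.64 ± 0.285 TPM (SD, n = 3 each). PTGER4, a receptor for prostaglandin E2 and the third of the tested genes, named after its values were seen, had 3.63 ± 1.03 and 3.35 ± 0.379 TPM. SLCO2A1, which takes prostaglandins up into cells, lay below the filter at 0.41, 0.51 and 0.32 TPM without ArA and 0.26, 0.25 and 0.21 TPM with ArA, and was named after its values were seen. Its groups did not overlap at these low levels. The share of 8.05% without overlap covers only genes averaging 1 TPM or more, so it gives no background for this gene.

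All 14 regulators in the table were tested. Of these, 12 were positive in log2 fold change (11 by every other scaling). The median was 0.12. The groups did not overlap for 4 of 14, all higher in ArA libraries, against 6.84% of all tested genes; there were 3 after quantile normalization and 3 after rescaling without mitochondrially encoded genes. Without control replicate 2 and ArA replicate 1 there were 8 of 14 here and 8 of 11 among the further enzymes, where 44.4% of all tested genes did not overlap in either direction. The latter count includes AKR1C2, which passed the filter only through its ArA libraries. JUN, a subunit of the AP-1 factor, had the smallest p, at 37.63, 39.62 and 35.37 TPM without ArA and 51.47, 50.25 and 49.87 TPM with ArA, with a log2 fold change of 0.42 (SE 0.09, limma adjusted p = 0.999). The AP-1 gene FOSL1 and the hypoxia factor gene HIF1A had the highest levels, at 131 ± 11.7 and 131 ± 3.69 TPM and at 88.7 ± 25.0 and 99.3 ± 18.7 TPM. EGR1, whose product is known to bind the EGR motif, had 13.00, 14.83 and 15.32 TPM without ArA and 13.92, 16.50 and 15.70 TPM with ArA, with overlap. CEBPB and CEBPD, of the C/EBP family, and the RNA-decay factor gene ZFP36 were the other 3 without overlap, at 33.4 ± 2.41 and 42.7 ± 1.20, 1.12 ± 0.111 and 1.78 ± 0.331, and 9.03 ± 0.850 and 10.1 ± 0.345 TPM. EGR1 and these 3 were named after their values were seen. Both AKR1B1 and JUN passed in 1 of 22 fits, that with array weights.

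**Figure D5:**
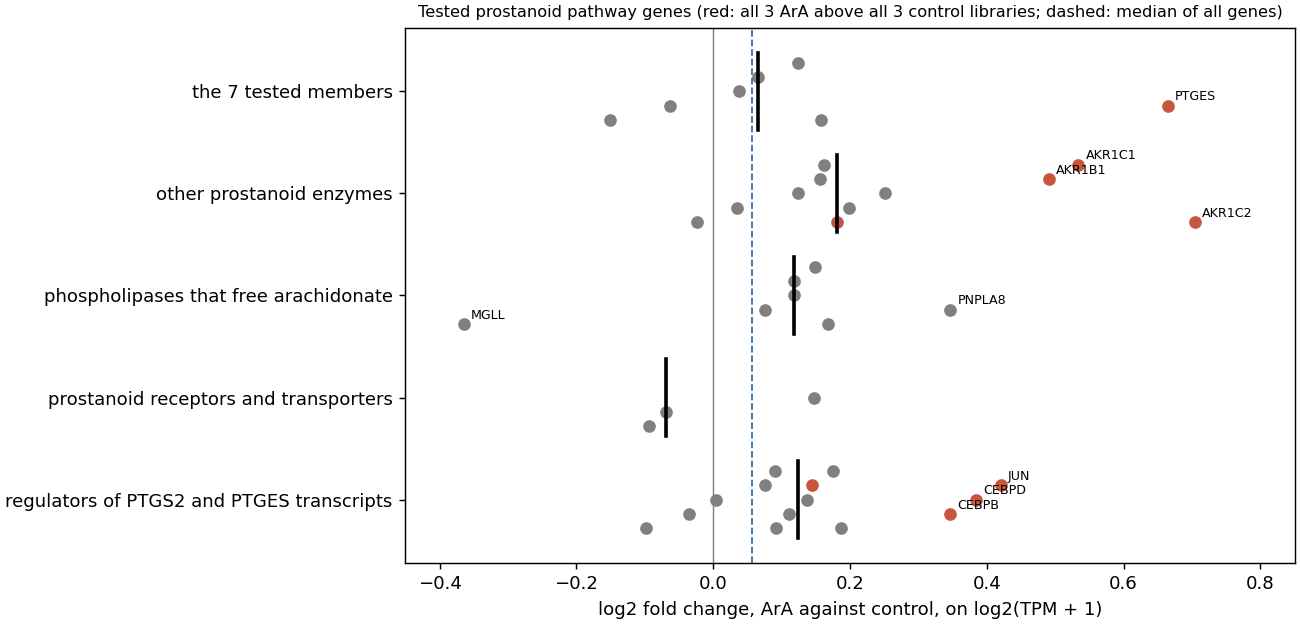
log2 fold changes of all tested genes of the 5 lists, 1 point per gene, with the list median as a black bar and the median of all tested genes, 0.06, as a dashed line. Red points are genes whose 3 ArA libraries all lie above the 3 control libraries: 1 among the 7 prostanoid enzymes followed here, 4 of 11, 0 of 7, 0 of 3 and 4 of 14 in the lists below, against 6.84% of all tested genes. Among the 4 of 11, AKR1C2 passed the filter of 1 TPM only through its ArA libraries.

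The genes whose levels ran most like those of PTGES over the 6 libraries were CSF1, FBXO2 and CPT1A, with Pearson's r of 0.996, 0.995 and 0.993 on log2(TPM + 1) among 8958 genes averaging 5 TPM or more. CSF1, a macrophage growth factor gene, had 192.16, 210.19 and 174.34 TPM without ArA and 302.00, 279.05 and 277.47 TPM with ArA. Among the genes most like PTGS2 were PARP9 and NT5C3A, with an r of 0.997 and 0.996. An r over 0.9 was reached by 1.99% of genes with PTGES and by 16.6% with PTGS2. These are descriptions over the same 6 libraries. CSF1, FBXO2 and CPT1A were themselves higher in all ArA than in all control libraries, with log2 fold changes of 0.57, 0.64 and 0.37. Their r with PTGES over both groups therefore includes the difference between the groups. The libraries also differ in their trend with GC content, and its part in the likeness was not tested.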

How the data were processed

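RNA was measured by RNA-seq in 6 libraries of MDA-MB-231 cells, 3 per group. The authors deposited values in TPM, 1 column per library. Per the submitters' processing notes, HISAT2, StringTie, RSEM and the build hg38 were used; roles, versions, annotation and strand setting: not given in the sources used here. Since TPM carries no counts, depth and counting error are unknown; TPM are shares of a fixed total, of which mitochondrially encoded transcripts took 26.9 to 32.9%. Of its lines, 63241 name a gene; the 50 others were left out.

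Groups came from sample titles. The 12999 genes averaging 1 TPM or more were fitted as log2(TPM + 1) with limma 3.58.1 in R 4.3.3 (eBayes with trend, group only, 2-sided, Benjamini-Hochberg over all tested genes, threshold 0.05). The fit was also run on simulated data with independent noise per gene and library. These had no trend with GC content, so the run does not cover that feature of the data. PTGS1 had an exact permutation test. Named were all 10 genes and, per pathway list, genes past the threshold, that with the smallest p and the 2 with the highest mean TPM; others are marked in the text. For PTGES and PTGS2 the 3 most correlated genes were named, except that 1 gene for PTGS2 is not reported here. The genes and lists were chosen with earlier results of these data known. Of the pathway lists, older duplicate symbols were not matched.

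Alternatives were 3 scalings, pseudocounts of 0.1 and 5, 2 filters, the replicate number as a block, 3 variance models, a GC correction (natural spline, 5 degrees of freedom, GC of the longest GENCODE v29 transcript, known for 97.2% of tested genes) alone and with the block, and each library left out. Added after seeing the data were 2 fits on control replicate 2 and ArA replicate 1, with a term for the pair and without both.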

Additional observations from a re-analysis of the deposited data

How the results depend on the processing

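Over 21 alternatives in limma, PTGES, PTGES2 and PTGR1 stayed positive and HPGD negative (20 alternatives, as HPGD and TBXAS1 do not reach a mean of 5 TPM). PTGES passed with array weights (0.72, adjusted p = 0.00802), which made 1 gene of the 7 pass, and its adjusted p ranged from 0.00802 to 1. PTGS2 turned to -0.013 with median of ratios scaling, -0.029 with quantile normalization, -0.025 when rescaled without mitochondrially encoded genes, -0.089 with array weights and -0.056 without control replicate 2 and ArA replicate 1 together. Leaving out 1 library at a time, PTGS2 ranged from -0.12 to 0.14 (negative without control replicate 2, and at -0.046 without ArA replicate 3), PTGES from 0.61 to 0.75, PTGES3 from -0.19 to 0.028 (positive without control replicate 1 or ArA replicate 1) and TBXAS1 from -0.012 (without control replicate 2) to 0.32. The cause of these moves was not tested.

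Genes past the threshold over all genes numbered 3, 0 with the replicate block, 214 with array weights, 5 with GC correction, 0 to 7 leaving out 1 library, 12 without control replicate 2 and ArA replicate 1, and 5 with a term for them. In limma 232 genes had an unadjusted p under 0.05 with the block, 413 without control replicate 1 and 228 without ArA replicate 2, the 3 settings with 0. Of the 7 tested genes, those whose groups did not overlap numbered 1, 1 to 4 leaving out 1 library (4 without control replicate 2, where 27% of all tested genes did not overlap, and 2 without control replicate 3 or ArA replicate 1, where 12.9% and 23.6% did not), and 5 without both libraries named, where 44.4% did not.

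Sample titles give a replicate number and state no pairing. Deviations of same-numbered libraries from the group means correlated at -0.156, -0.28 and 0.109. Of the 6 libraries, 1 correlated best with its own number. The highest value, 0.285, was between control replicate 2 and ArA replicate 1, the libraries that stood apart by GC content. With 3 libraries per group, these values cannot decide whether libraries were paired. With the replicate block PTGES had 0.66 (limma adjusted p = 1) and 0 of the 7 genes passed; with GC correction and the block it had 0.60 (limma adjusted p = 0.907). Depth is unknown, so no counting error can be given.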
